A study of Mus musculus with 55 samples.

Results

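Diestrus and estrus are stages of the mouse ovarian cycle that differ in circulating estradiol and progesterone. Gene expression of the dorsal hippocampus in the 2 stages was compared in wild-type (WT) female mice, in 13 of the 55 libraries of the series. The genotype and stage labels gave 6 mice in diestrus (2_2, 380_4, 548, 549, 569 and 8_1) and 7 in estrus (1_1, 2_1, 3_1, 3_2, 5_2, 5_3 and 8_3). All 13 were on a C57/BL6j background, none carried the Cnih3 deletion of the knock-out (KO) mice in the series, and the labels name no hormone or drug. Stage was read from vaginal cytology, so hormone levels themselves were not part of the data. Each library held RNA from the supernatant of a centrifuged NP-40 detergent lysate of 1 mouse, from which polyadenylated RNA was copied into cDNA with a kit that does not mark strand. The 3 diestrus mice with a 3-digit number (548, 549 and 569) were 11.71 to 12.29 weeks old, the other 3 diestrus mice (2_2, 380_4 and 8_1) 16.43 to 17.14 weeks, and the estrus mice 16.29 to 20.29 weeks. The sample table of the study lists Cnih3 x B6 parents for 548, 549, 569 and 8_1 in diestrus and for 8_3 in estrus, and B6 x B6 parents for the remaining 8 mice.

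Estradiol peaks before ovulation, and progesterone is secreted again as the corpora lutea form. Both steroids reach the brain and act through nuclear receptors that bind DNA as well as through signalling at the membrane. In the hippocampus the cycle is known for changes in the spines of CA1 pyramidal neurons and in glutamate receptor function. Cnih3, the gene deleted in the KO mice, encodes an auxiliary subunit of AMPA-type glutamate receptors.

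The libraries of 548, 549 and 569 stood apart from the other 10, and results are therefore given with and without them. On the first principal component, which held 43.3% of the variance of the 13 libraries, these 3 lay at 51.7 to 62.1 and the other 10 at -38.0 to 4.05. Nuclear long non-coding RNAs took 0.0878% to 0.104% of their counts, against 0.274% to 0.382% in the other diestrus mice and 0.312% to 0.447% in estrus. Messenger RNAs of cytosolic ribosomal proteins took 3.19% to 3.44%, against 2.26% to 2.84% and 2.37% to 3.01%. Total counts were 38769215 to 58932939 in diestrus and 29986468 to 63321180 in estrus. No pair of the 13 libraries had a Pearson r of log2 counts above 0.989. Among these 13 mice, the form of the mouse number, the younger age and the library properties cannot be told apart. Parents overlapped with them in part. All 3 of these diestrus mice had Cnih3 x B6 parents, as did 1 other diestrus mouse and 1 estrus mouse. The paper proposes that part of the WT diestrus group may fall into separate transcriptional states, most likely early and late endocrine phases of diestrus. Hormone levels were not part of the data, so this was not tested. In 3 other WT females of 12 to 13.57 weeks, in metestrus or proestrus, nuclear long non-coding RNAs took 0.200% to 0.363% of counts. The lowest of these, 0.200%, was that of 20_2, at 12 weeks. Among WT males the share was 0.165% in 19_1, at 12 weeks, 0.116% in 1949, at 23.71 weeks, and 0.265% to 0.302% in the rest. The part of age in these shares was not tested.

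Across all 6 diestrus and 7 estrus mice, 3576 of 16168 genes passed a false discovery rate (FDR) of 0.05 in limma. Of these, 1463 genes were higher in diestrus, or 9.05% of all genes tested, and 2113 were lower, or 13.1%. The 3-digit diestrus mice against the same estrus mice gave 3526 genes that were higher (21.8%) and 4043 that were lower (25.0%). The other diestrus mice against estrus gave 0 genes (0%). In that comparison the smallest FDR was 0.767 and 1022 genes had an unadjusted p under 0.05, and edgeR and DESeq2 also called 0 genes, with 461 and 488 genes at an unadjusted p under 0.05. Within diestrus, 2206 genes were higher (13.6%) and 2806 lower (17.4%) in the 3-digit than in the other mice. The division by mouse number was made with earlier results of these data known, so these counts describe it and do not test it. The median absolute log2 fold change over all genes was 0.31 for the 3-digit mice and 0.12 for the other diestrus mice, both against estrus.

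The pooled count of 3576 genes turned on single mice, on the weighting of the libraries, on the test and on covariates. Without 548 it was 4, without 549 it was 0 and without 569 it was 1. Without 2_2, 380_4 or 8_1 it was 6594, 6629 or 6643, and without single estrus mice 3040 to 3915. The limma fit weights each library by how closely it follows its group, and the other diestrus libraries had weights of 0.327 to 0.935, against 0.763 to 1.14 for the 3-digit and 0.876 to 1.81 for the estrus libraries. With equal weights 501 genes passed, of which 14.6% were higher, against 40.9% of the 3576. With age in weeks as a covariate 1910 genes passed, and with parents as a covariate 553. With DESeq2 132 genes passed, and with the edgeR quasi-likelihood test 2, Tmem163 and Gm11549. For the 3-digit mice against estrus edgeR called 4769 genes and DESeq2 5073.

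**Figure D1:**
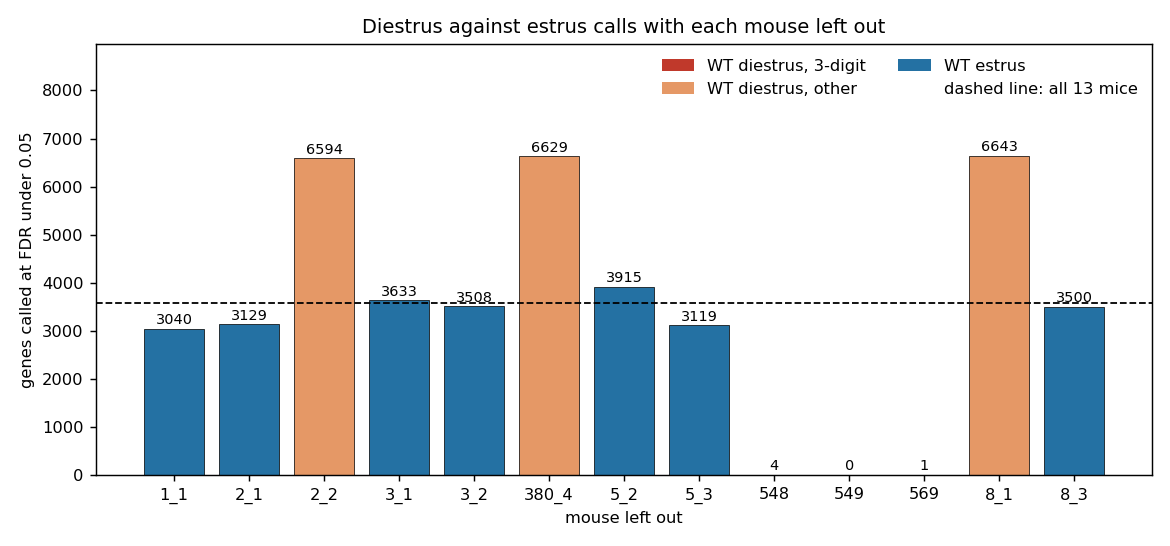
Number of genes at an FDR under 0.05 in WT diestrus against WT estrus (y axis) after leaving out the mouse named on the x axis, coloured by the set of that mouse. The dashed line marks the 3576 genes of all 13 mice; the bars of 548, 549 and 569 stand at 4, 0 and 1 and those of the other diestrus mice at 6594 to 6643.

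In the following, levels are in log2 CPM, counts scaled to the size of the library. Levels of diestrus mice are given in the order 548, 549 and 569 for the 3-digit mice and 2_2, 380_4 and 8_1 for the others. Where 3 log2 fold changes against estrus are given, the first is from all 6 diestrus mice, the second from the 3-digit mice and the third from the others. The standard error (SE) and FDR are those of limma.

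Cntn2, a cell adhesion protein of axons and oligodendrocytes (ENSMUSG00000053024, GRCm38 chr1:132509427-132543256), had the smallest p of all genes. Its levels were 3.61, 3.61 and 3.53 in the 3-digit mice, 5.76, 5.18 and 5.13 in the other diestrus mice and 5.31 to 5.71 (median 5.47) in estrus. The 3-digit mice lay below all other mice, and the other diestrus mice lay on both sides of the estrus range. The log2 fold change was -1.29 (SE 0.19, FDR = 1.54e-04) with all 6 mice, -1.91 (SE 0.17, FDR = 1.01e-11) with the 3-digit mice and -0.22 (SE 0.15, FDR = 0.773) with the others. Nfasc, which encodes neurofascin of the node of Ranvier and the axon initial segment, had levels of 4.95, 5.19 and 4.91, of 6.61, 6.03 and 6.08, and of 6.32 to 6.54 (median 6.38) in estrus. Again the 3-digit mice lay below all others. Its log2 fold changes were -0.96, -1.38 and -0.26, with FDR = 2.60e-04 for the first.

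The other genes that were lower with the smallest p were transporters, membrane proteins and an enzyme. Slc44a1, a choline transporter, had log2 fold changes of -0.90, -1.28 and -0.28, and Slc2a13, a transporter of myo-inositol, of -0.89, -1.20 and -0.32. Cacna2d3, an auxiliary subunit of voltage-gated calcium channels, had -0.76, -1.06 and -0.26. Cadm2, a synaptic adhesion protein, had -0.72, -0.998 and -0.29, and Sez6l2, a neuronal membrane protein, -0.96, -1.34 and -0.32. Adpgk, an ADP-dependent glucokinase, had levels of 1.69, 0.74 and 1.17, of 3.08, 2.00 and 1.69, and of 2.41 to 2.81 (median 2.73) in estrus. All diestrus mice but 2_2, which lay above the estrus range, were below estrus for Adpgk. Its log2 fold changes were -1.25, -1.58 and -0.66, with FDR = 2.60e-04, 2.53e-07 and 0.767.

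Among genes that were higher, the predicted gene Gm11549, which falls outside the rule for named genes and is given for its p, had the smallest p, with log2 fold changes of 0.98, 1.18 and 0.61 (FDR = 1.54e-04 for the first). Nrsn1, a neuronal vesicle protein (ENSMUSG00000048978, GRCm38 chr13:25252040-25270502), had the smallest p of the genes with other symbols. Its levels were 9.59, 9.54 and 9.59 in the 3-digit mice, 8.98, 9.28 and 9.27 in the other diestrus mice and 8.82 to 9.07 (median 8.97) in estrus. All diestrus mice but 2_2 lay above the estrus range. The log2 fold change was 0.46 (SE 0.07, FDR = 2.60e-04) with all 6 mice, 0.59 (FDR = 6.43e-09) with the 3-digit mice and 0.24 (FDR = 0.767) with the others. Fxyd6, a regulator of the sodium pump, had levels of 7.00, 6.99 and 7.04, of 5.86, 6.22 and 6.04, and of 5.82 to 6.13 (median 5.94) in estrus. Here the 3-digit mice lay above all others, and of the other diestrus mice only 380_4 was above the estrus range.

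The log2 fold changes of Fxyd6 were 0.67, 1.03 and 0.10. Rnd1, a small GTPase, had 0.64, 0.94 and 0.14, and Rab26, a GTPase of secretory vesicles, 0.56, 0.66 and 0.34. Agbl4, which shortens polyglutamate chains on tubulin, had 0.66, 0.82 and 0.36. Ddah2, named for the breakdown of dimethylarginine, had 0.65, 0.87 and 0.27, Blcap 0.34, 0.43 and 0.19 and Shd, an adaptor protein with an SH2 domain, 0.63, 0.86 and 0.21. The 8 genes that were higher and the 8 that were lower with the smallest p passed with the 3-digit mice and did not pass with the others. They were picked by their p in a comparison that holds the 3-digit mice, and 0 of 16168 genes passed with the others. Their passing is therefore no separate evidence and not particular to them.

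**Figure D2:**
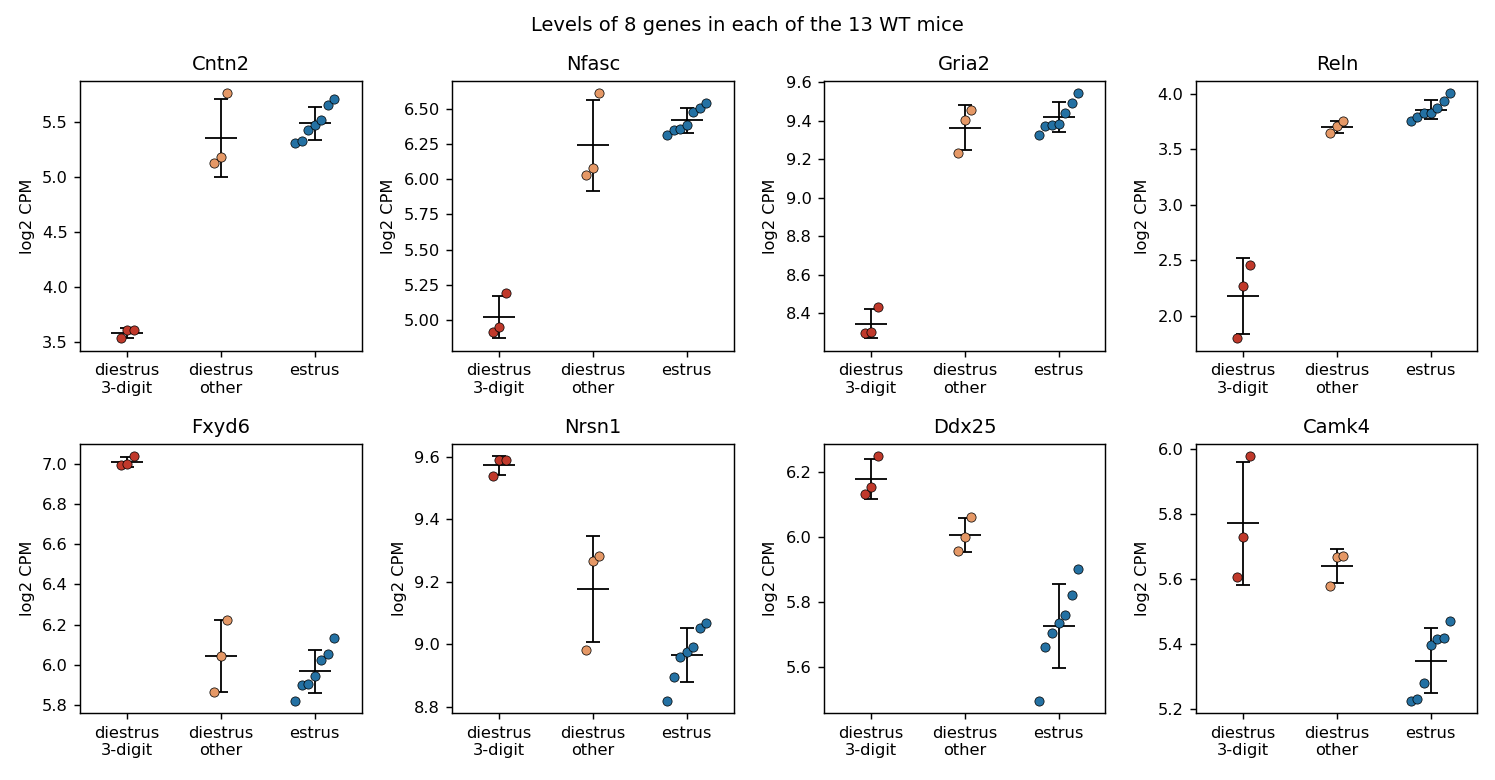
Levels of 8 genes in log2 CPM (y axis) in each of the 13 WT mice, as points by set (x axis), with the mean and SD of each set in black. For Cntn2, Nfasc, Gria2 and Fxyd6 the 3-digit diestrus mice lie apart from all other mice, and for Ddx25 and Camk4 all 6 diestrus mice lie above the 7 estrus mice.

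In 21 genes (0.130% of those tested) all 6 diestrus mice lay above all 7 estrus mice, and in 40 genes (0.247%) all lay below. Of these, 18 and 33 passed the FDR, which rests on the same values and is no separate evidence. Ddx25, an RNA helicase (ENSMUSG00000032101, GRCm38 chr9:35536647-35558528), had levels of 6.13, 6.25 and 6.15 in the 3-digit mice, 6.00, 6.06 and 5.96 in the other diestrus mice and 5.50 to 5.90 (median 5.74) in estrus. Both diestrus sets lay above the estrus range. Ddx25 stood at a log2 fold change of 0.40 (SE 0.08, FDR = 0.00109), and 0.29 in the other diestrus mice alone (FDR = 0.767). With DESeq2 its FDR was 0.0272 and with edgeR 0.0881.

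Camk4, a calcium and calmodulin-dependent kinase that phosphorylates the transcription factor CREB, had levels of 5.98, 5.61 and 5.73, of 5.58, 5.67 and 5.67, and of 5.22 to 5.47 (median 5.40) in estrus. Its log2 fold changes were 0.36, 0.40 and 0.29, with FDR = 0.00195 for the first, 0.0295 with DESeq2 and 0.0881 with edgeR. Zfp184, a zinc finger protein, had levels of 1.87, 1.90 and 1.38, of 1.57, 1.502 and 1.23, and of 0.11 to 1.19 (median 0.76) in estrus, and log2 fold changes of 0.88, 1.02 and 0.67. Ltv1, a factor of small ribosomal subunit assembly, had 4.76, 5.27 and 5.31, then 4.69, 4.78 and 4.74, and 4.30 to 4.66 (median 4.57) in estrus, and log2 fold changes of 0.44, 0.58 and 0.20.

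Reln, the secreted glycoprotein reelin made by interneurons and Cajal-Retzius cells (ENSMUSG00000042453, GRCm38 chr5:21884454-22344702), had levels of 2.27, 2.46 and 1.79 in the 3-digit mice, 3.64, 3.75 and 3.70 in the other diestrus mice and 3.75 to 4.00 (median 3.83) in estrus. The 3-digit mice were far below, and the other diestrus mice just under, the estrus range. The log2 fold change of Reln was -1.11 (SE 0.23, FDR = 9.87e-04) with all 6 mice, -1.66 (FDR = 7.55e-08) with the 3-digit mice and -0.16 (FDR = 0.859) with the others. Lrp8, a receptor of reelin, had log2 fold changes of -0.61, -0.77 and -0.32, Pcdh17, a protocadherin, of -0.44, -0.55 and -0.24, and Tmem205 of -0.46, -0.53 and -0.34. For these 3 genes too, all 6 diestrus mice lay below all 7 estrus mice.

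The promoters of Ddx25, Ltv1, Pcdh17 and Reln (RefSeq, GRCm38.p6) are shown because diestrus and estrus mice did not overlap for these genes. They lie at chr9:35558421-35558720 (minus strand), chr10:13193088-13193387 (minus strand), chr14:84443313-84443612 (plus strand) and chr5:22344656-22344955 (minus strand), and each has 300 bases, most of them before the annotated start. Capitals would mark AGGTCA, the letters that estrogen receptors bind in pairs, on either strand, and none of the 4 windows holds it. Their content of G and C is 75.0%, 61.7%, 65.0% and 80.7%.
Ddx25: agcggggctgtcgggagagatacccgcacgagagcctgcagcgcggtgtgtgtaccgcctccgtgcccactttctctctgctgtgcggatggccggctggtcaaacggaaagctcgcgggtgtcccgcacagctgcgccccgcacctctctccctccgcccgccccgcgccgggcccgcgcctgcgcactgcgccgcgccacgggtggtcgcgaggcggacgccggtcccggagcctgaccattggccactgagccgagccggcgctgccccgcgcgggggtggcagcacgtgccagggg
Ltv1: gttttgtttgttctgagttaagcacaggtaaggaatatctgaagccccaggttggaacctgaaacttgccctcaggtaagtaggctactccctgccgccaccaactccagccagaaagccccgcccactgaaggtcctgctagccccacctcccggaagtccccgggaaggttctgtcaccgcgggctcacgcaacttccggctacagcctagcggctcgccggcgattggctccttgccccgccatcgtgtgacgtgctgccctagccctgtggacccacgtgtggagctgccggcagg
Pcdh17: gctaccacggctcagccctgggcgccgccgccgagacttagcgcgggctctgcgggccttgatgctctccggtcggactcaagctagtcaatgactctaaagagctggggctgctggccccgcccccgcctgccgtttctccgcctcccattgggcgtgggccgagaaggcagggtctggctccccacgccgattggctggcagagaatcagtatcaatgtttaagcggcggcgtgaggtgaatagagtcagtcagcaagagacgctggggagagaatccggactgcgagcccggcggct
Reln: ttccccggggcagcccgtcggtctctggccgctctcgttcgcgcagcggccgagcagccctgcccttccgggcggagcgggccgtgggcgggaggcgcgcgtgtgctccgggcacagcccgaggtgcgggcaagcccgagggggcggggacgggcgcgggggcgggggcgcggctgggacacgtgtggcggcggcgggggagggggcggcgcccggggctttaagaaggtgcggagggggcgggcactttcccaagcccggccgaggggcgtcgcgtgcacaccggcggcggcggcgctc

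Of all promoters of tested genes, 12.1% (1364 of 11314) held AGGTCA or its reverse complement TGACCT. Of the promoters of genes that were higher in diestrus 13.8% (158 of 1145) held it, and of those that were lower 11.8% (174 of 1479). The full palindrome GGTCANNNTGACC of the estrogen response element, which overlaps AGGTCA, was in 1 of the 11314 promoters and in 0 of those of called genes. The palindrome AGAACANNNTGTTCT, which glucocorticoid and progesterone receptors bind, was in 0 of the 11314. A match of letters is not a binding site, and its absence here concerns this window only.

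AMPA receptors carry fast excitatory transmission, and 7 of the 16 genes of their subunits and auxiliary proteins were lower with all 6 mice, 10 with the 3-digit mice and 0 with the others. None was higher in these comparisons. The median log2 fold change of the list was -0.33, -0.54 and -0.10, against -0.0087, -0.01 and -0.0003 over all genes tested. Gria2, the subunit that limits calcium permeability (ENSMUSG00000033981, GRCm38 chr3:80681450-80802835), had levels of 8.30, 8.43 and 8.30 in the 3-digit mice, 9.41, 9.45 and 9.23 in the other diestrus mice and 9.33 to 9.54 (median 9.38) in estrus. The 3-digit mice lay below all others. Gria2 stood at a log2 fold change of -0.70 (SE 0.13, FDR = 4.76e-04), then -1.07 (FDR = 3.53e-11) and -0.08 (FDR = 0.884). The pore subunits Gria1, Gria3 and Gria4 were also lower with all 6 mice, at -0.40, -0.59 and -0.63, as were the auxiliary subunits Shisa7, Shisa9 and Cacng8, at -0.76, -0.46 and -0.63. Cacng2 and Cnih2, auxiliary subunits as well, had -0.08 and -0.07 (FDR = 0.472 and 0.779).

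Cnih3 itself had levels of 4.92, 4.78 and 4.80 in the 3-digit mice, 5.79, 5.18 and 4.95 in the other diestrus mice and 5.11 to 5.85 (median 5.32) in estrus. The 3-digit mice lay below the estrus range, and so did 8_1. Cnih3 stood at a log2 fold change of -0.45 (SE 0.17, FDR = 0.0550) with all 6 mice, -0.57 (FDR = 0.00745) with the 3-digit mice and -0.20 (FDR = 0.826) with the others.

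Of 6 NMDA receptor subunits, 4 were lower with all 6 mice and 5 with the 3-digit mice, with list medians of -0.56, -0.77 and -0.27. Grin1, the obligatory subunit, had levels of 3.85, 4.198 and 3.89, of 6.05, 5.36 and 5.42, and of 5.14 to 5.84 (median 5.42) in estrus, with log2 fold changes of -0.91, -1.47 and 0.05. Grin2a and Grin2b, which set the kinetics of the receptor, had -0.55, -0.84 and -0.06, and -0.58, -0.82 and -0.17.

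Of 13 GABA-A receptor subunits, 5 were lower and 1 was higher with all 6 mice, and 8 and 1 with the 3-digit mice. Gabrb1 had -0.43, -0.62 and -0.11, while Gabra2 was the subunit that was higher, with 0.61, 0.71 and 0.39. Of 73 potassium channel subunits, 29 were lower and 2 higher with all 6 mice, and 39 and 10 with the 3-digit mice. Kcnk9, a leak channel, had -0.96, -1.33 and -0.32, and Kcnd2, a channel of the dendritic A-type current, -0.44, -0.58 and -0.19. None of these receptor and channel genes passed in the other diestrus mice. Of all genes, 9.05% were higher and 13.1% lower with all 6 mice, and 21.8% and 25.0% with the 3-digit mice. The counts of higher GABA-A and potassium channel subunits lay below these shares.

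Clustered protocadherins, which give single neurons distinct surfaces, were lower in 15 of 46 members with all 6 mice and in 31 with the 3-digit mice, and none was higher. The list medians were -0.59, -0.96 and 0.0024. Pcdhb17 had log2 fold changes of -1.001, -1.33 and -0.38 and Pcdhb3 of -1.28, -1.66 and -0.58. Members of this family share sequence and the authors counted uniquely aligned reads, so the split between members is uncertain.

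Oligodendrocytes wrap axons in myelin, and 13 of 20 genes of mature oligodendrocytes were lower with all 6 mice, 14 with the 3-digit mice and 0 with the others. The mean level of the list was 5.07 to 5.40 in the 3-digit mice, 5.99 to 6.46 in the other diestrus mice and 5.85 to 6.36 in estrus, and its median log2 fold changes were -0.64, -0.97 and 0.01. In this bulk tissue, fewer cells of a type and less RNA per cell cannot be told apart. Mag, an adhesion protein of myelin, had log2 fold changes of -0.87, -1.45 and 0.08, and Myrf, a transcription factor of myelin genes, -0.82, -1.30 and -0.0096.

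Other myelin genes did not pass in any of these comparisons. Mbp, myelin basic protein, had levels of 10.68, 10.65 and 10.85, of 10.92, 10.77 and 10.89, and of 10.48 to 10.98 (median 10.63) in estrus, and all diestrus mice lay within the estrus range. Its log2 fold changes were 0.06, -0.0008 and 0.14, with FDR = 0.774 for the first. Mobp had -0.04, -0.12 and 0.08 and Cnp 0.04, -0.04 and 0.15. Of 11 genes of oligodendrocyte precursors, 6 were lower with all 6 mice, among them Gpr17, a receptor of differentiating precursors, with -1.10, -1.54 and -0.33, and Vcan, a matrix proteoglycan, with -0.94, -1.24 and -0.36.

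**Figure D3:**
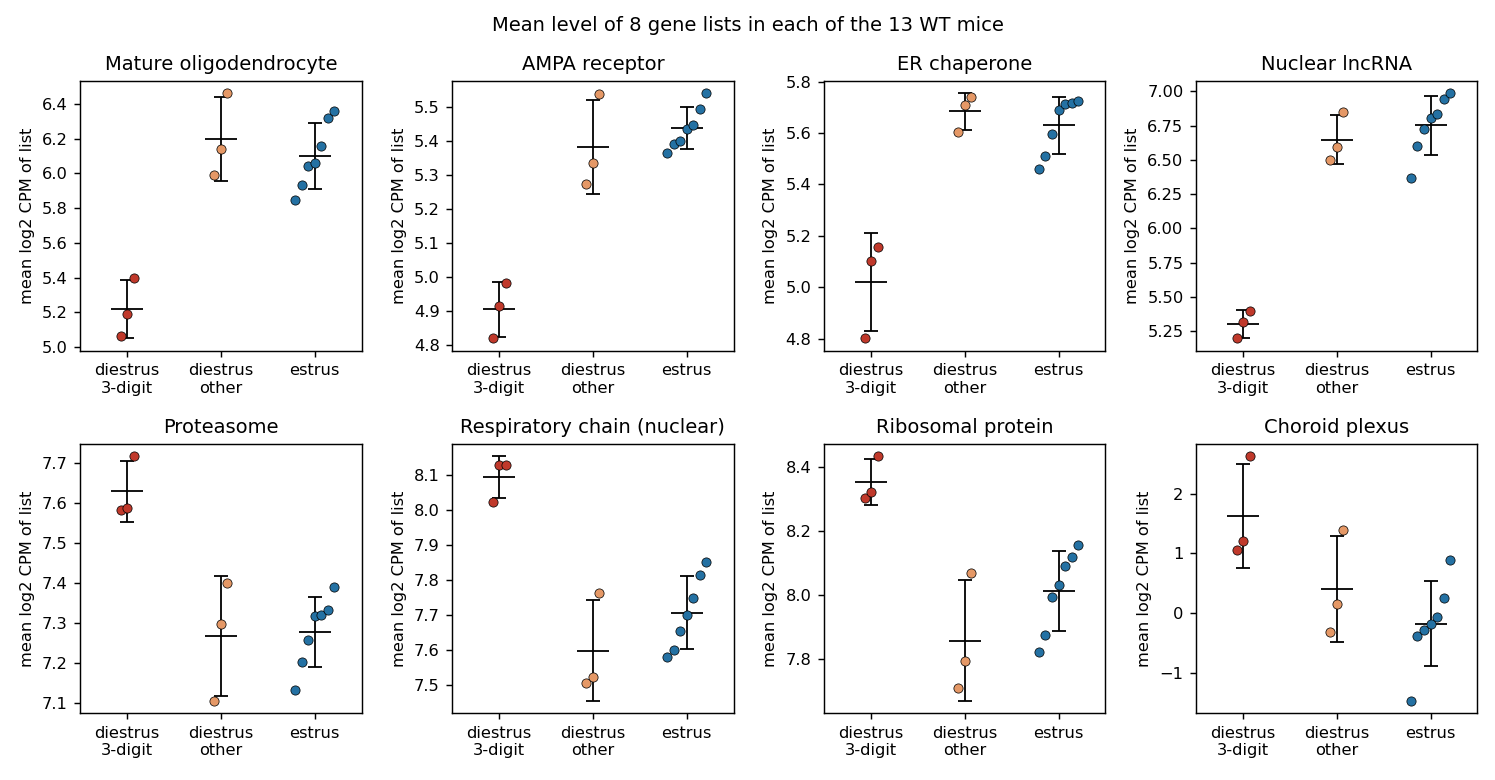
Mean level of 8 gene lists in log2 CPM (y axis) in each of the 13 WT mice, as points by set (x axis), with the mean and SD of each set in black. The 3-digit diestrus mice lie below all other mice for the mature oligodendrocyte, AMPA receptor, ER (endoplasmic reticulum) chaperone and nuclear lncRNA (long non-coding RNA) lists and above all others for the proteasome, respiratory chain and ribosomal protein lists; for choroid plexus they overlap with the other diestrus mice.

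Chaperones of the endoplasmic reticulum fold secreted and membrane proteins, and 8 of 14 were lower with all 6 mice, 11 with the 3-digit mice and 0 with the others. The list medians were -0.44, -0.65 and -0.004. Hsp90b1, the Hsp90 of this compartment, had levels of 6.14, 6.13 and 6.21, of 6.85, 6.88 and 6.80, and of 6.85 to 7.07 (median 7.05) in estrus, and log2 fold changes of -0.61, -0.87 and -0.18. Calr, calreticulin, had -0.55, -0.77 and -0.18, and Hspa5, the chaperone BiP, -0.42, -0.64 and -0.03. Manf and Sdf2l1 had 0.0076 and 0.01 with all 6 mice (FDR = 0.968 and 0.975).

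Of 10 nuclear long non-coding RNAs, 6 were lower with all 6 mice and 0 were higher. With the 3-digit mice 6 were lower and 1, Pantr1, was higher, at 0.30, and with the others 0 passed. Meg3, an imprinted RNA (ENSMUSG00000021268, GRCm38 chr12:109541001-109571726), had levels of 6.82, 6.78 and 7.36 in the 3-digit mice, 10.37, 9.94 and 9.74 in the other diestrus mice and 9.45 to 10.33 (median 10.16) in estrus. The 3-digit mice lay below all others. Meg3 stood at a log2 fold change of -2.01 (SE 0.37, FDR = 4.82e-04), then -3.15 (FDR = 2.18e-11) and -0.15 (FDR = 0.926). Miat had -2.02, -3.12 and -0.12, Malat1, a component of nuclear speckles, -1.86, -2.64 and -0.65, and Neat1, the scaffold of paraspeckles, -1.24, -1.86 and -0.15.

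By annotated class, 126 of 306 TEC genes (unspliced transcripts awaiting experimental support) were lower with all 6 mice, or 41.2%, and 14 of 28 sense intronic genes, or 50.0%, while 0 of either class were higher. Of 13482 protein-coding genes 13.5% were lower and 10.4% higher. Since the kit does not mark strand, reads of sense intronic genes cannot be told apart from those of their host genes.

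Proteasome subunits, which degrade ubiquitin-tagged proteins, were higher in 23 of 37 cases with all 6 mice, in 33 with the 3-digit mice and in 0 with the others. None was lower, and the list medians were 0.24, 0.39 and 0.02. Psmd1, of the regulatory particle, had levels of 7.83, 7.72 and 7.71, of 7.21, 7.60 and 7.48, and of 7.16 to 7.50 (median 7.24) in estrus, with log2 fold changes of 0.38, 0.49 and 0.21. Psmd13, of the same particle, had 0.29, 0.44 and 0.05.

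Of 79 nuclear genes for subunits of the respiratory chain, 21 were higher with all 6 mice, 74 with the 3-digit mice and 0 with the others, and none was lower. The list medians were 0.21, 0.40 and -0.12. Uqcrc1, a core protein of complex III, had levels of 9.83, 9.79 and 9.88, of 9.10, 9.31 and 9.34, and of 9.15 to 9.52 (median 9.23) in estrus, with log2 fold changes of 0.38, 0.59 and 0.04. Uqcrc2, its partner, had 0.40, 0.59 and 0.10. Of 13 mRNAs encoded by mitochondrial DNA, 0 passed with all 6 mice and 1 was higher with the 3-digit mice, mt-Nd4l at 0.79. Of 79 cytosolic ribosomal proteins, 6 were higher with all 6 mice, 72 with the 3-digit mice and 0 with the others, with medians of 0.18, 0.36 and -0.13. Of all genes, 9.05% were higher with all 6 mice and 21.8% with the 3-digit mice. The 6 ribosomal proteins with all 6 mice and the 1 mitochondrial mRNA with the 3-digit mice lay below these shares. Rpl4 had levels of 10.84, 10.76 and 10.93, of 10.16, 10.42 and 10.49, and of 10.28 to 10.53 (median 10.42) in estrus, and log2 fold changes of 0.28, 0.44 and 0.0003.

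**Figure D4:**
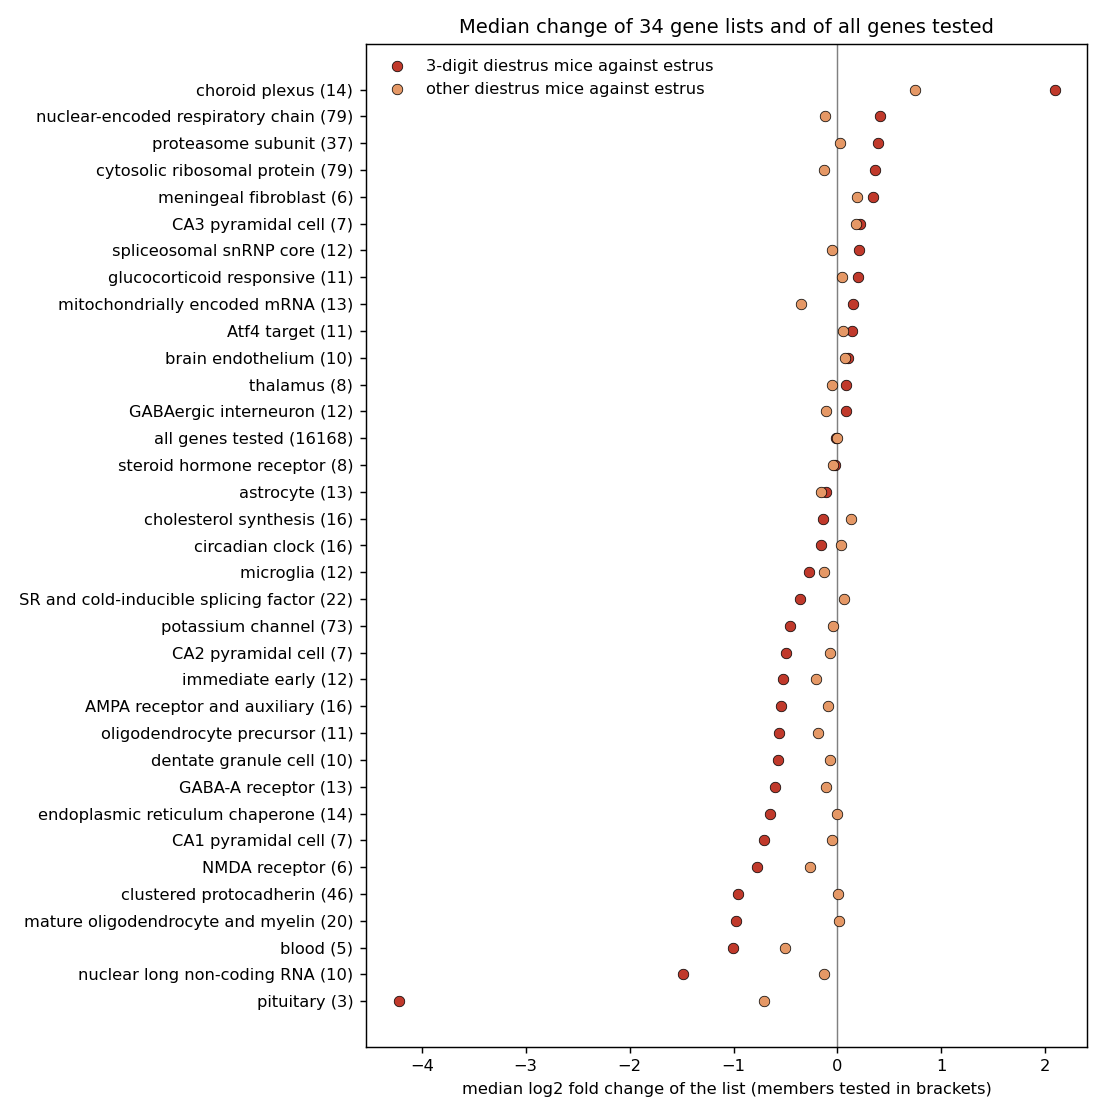
Median log2 fold change against WT estrus (x axis) of 34 gene lists and of all genes tested (y axis, members tested in brackets) for the 3-digit and for the other WT diestrus mice, which are compared with the same 7 estrus mice. Medians of the 3-digit mice run from -4.22 for pituitary to 2.09 for choroid plexus, while those of the other diestrus mice lie between -0.35 and 0.19 for all lists but choroid plexus, pituitary and blood.

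Of 22 SR proteins and related regulators of splicing, 10 were lower and 1 higher with all 6 mice, 12 and 2 with the 3-digit mice, and 0 passed with the others. The list medians were -0.21, -0.36 and 0.06. Luc7l3 and Luc7l2, of the U1 particle, had -0.63, -0.94 and -0.13, and -0.94, -1.34 and -0.26, and Srsf2 had -0.95, -1.54 and 0.02. Cirbp, a cold-inducible RNA-binding protein, was the member that was higher, with 0.42, 0.59 and 0.12. Of 12 core proteins of the spliceosomal particles 0 passed with all 6 mice, and with the 3-digit mice 4 were higher, among them Snrpa at 0.38, and 1 was lower. Of all genes, 9.05% were higher and 13.1% lower with all 6 mice, and 21.8% and 25.0% with the 3-digit mice. The counts of higher splicing regulators lay below these shares, and the 4 higher core proteins were near theirs.

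Of 16 genes of cholesterol synthesis and its control, 3 were higher and 2 lower with all 6 mice, 5 and 6 with the 3-digit mice, and 0 passed with the others. The list medians were -0.07, -0.14 and 0.13. Nsdhl, Fdft1 and Mvd, enzymes of the pathway, had 0.47, 0.47 and 0.48 with all 6 mice, and 0.09, 0.12 and 0.29 with the others alone. Dhcr7, another enzyme and 1 of those that were lower, had log2 fold changes of -0.59, -1.01 and 0.14, so its sign differed between the diestrus sets. Of 16 circadian clock genes 2 were lower, Clock at -0.27 and Per3 at -0.38, and 1 was higher, Nr1d1 at 0.30, while 5 were lower and 2 higher with the 3-digit mice and 0 passed with the others. In the other diestrus mice alone Clock had 0.03 and Per3 0.01. Of all genes, 9.05% were higher and 13.1% lower with all 6 mice, and 21.8% and 25.0% with the 3-digit mice. The clock counts with all 6 mice were near these shares.

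None of the 8 genes of steroid receptors and related proteins passed with all 6 mice. Esr1, estrogen receptor alpha, had levels of 1.29, 1.61 and 1.24 in the 3-digit mice, 0.86, 1.21 and 1.45 in the other diestrus mice and 0.88 in the median estrus mouse, with a highest estrus value of 1.44, and the groups overlapped. Its log2 fold change was 0.46 (SE 0.24, FDR = 0.162). Pgr, the progesterone receptor, had levels of 3.61, 3.90 and 3.68, of 3.88, 3.82 and 3.89, and of 3.54 to 3.93 (median 3.74) in estrus, with a difference of 0.03 on the log2 scale (SE 0.11, FDR = 0.889). With the 3-digit mice Nr3c1 and Nr3c2, the glucocorticoid and mineralocorticoid receptors, were lower, at -0.28 and -0.36, and Gper1, a membrane estrogen receptor, was higher, at 0.66. Of all genes, 21.8% were higher and 25.0% lower with the 3-digit mice, so these counts did not exceed the shares of all genes.

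Of 11 glucocorticoid-responsive genes 0 passed with all 6 mice and 2 were higher with the 3-digit mice, Tsc22d3 with 0.28, 0.43 and 0.04 and Mt1 with 0.17, 0.44 and -0.31. Of 12 immediate early genes of neuronal activity 1 was lower with all 6 mice, Dusp1 with -0.56, -0.66 and -0.28. Dusp1, Egr1, Btg2 and Fos were lower with the 3-digit mice, and Egr1 had -0.37 with all 6 mice (FDR = 0.0551). Of 11 targets of the stress factor Atf4, 2 enzymes of amino acid synthesis were higher, Phgdh with 0.37, 0.56 and 0.05 and Asns with 0.36, 0.47 and 0.17, and 4 targets were higher with the 3-digit mice. In the other diestrus mice 0 genes of these 3 lists passed. The shares of all genes were 9.05% higher and 13.1% lower with all 6 mice and 21.8% and 25.0% with the 3-digit mice.

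Markers of dentate granule and CA1 pyramidal cells were present in all 13 libraries, at list means of 4.73 or more and 4.65 or more. Of 10 dentate granule cell genes 6 were lower with all 6 mice and 8 with the 3-digit mice. Prox1, the transcription factor of these cells, had -0.44, -0.59 and -0.16. Of 7 CA1 genes 4 were lower with all 6 mice, among them Wfs1, a membrane protein of the endoplasmic reticulum, with -0.74, -1.07 and -0.23, and Man1a with -0.76, -1.02 and -0.33. Of 7 CA2 genes Amigo2 was lower, with -0.70, -1.04 and -0.15, and Rgs14 higher, with 0.40, 0.48 and 0.25, and of 7 CA3 genes Cpne4 was higher, with 0.26, 0.33 and 0.13. With the 3-digit mice 5 CA1, 3 CA2 and 1 CA3 genes were lower and 1, 1 and 2 were higher. There 1 dentate granule cell gene was higher too, and 0 genes of these 4 lists passed with the others. Of all genes, 9.05% were higher and 13.1% lower with all 6 mice, and 21.8% and 25.0% with the 3-digit mice. The CA2 and CA3 counts with all 6 mice were near these shares.

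Among 12 interneuron genes 3 were lower with all 6 mice, Reln, Slc32a1, the vesicular GABA transporter, with -0.83, -1.06 and -0.46, and Erbb4, a neuregulin receptor, with -0.54, -0.73 and -0.24. With the 3-digit mice 4 were lower and 2 higher. The enzyme Gad2 and the markers Sst, Pvalb and Npy had 0.07, -0.05, 0.11 and 0.0047 with all 6 mice, none of which passed. Of 13 astrocyte genes 3 were higher and 1 lower with all 6 mice, and 5 and 2 with the 3-digit mice, with list medians of -0.13, -0.11 and -0.16. Ndrg2 had log2 fold changes of 0.50, 0.92 and -0.18, Aldh1l1 of 0.50, 0.79 and 0.02 and Aldoc of 0.41, 0.76 and -0.16, so Ndrg2 and Aldoc had the other sign in the other diestrus mice. Slc4a4, a bicarbonate transporter, was lower, with -0.43, -0.51 and -0.26. The shares of all genes were 9.05% higher and 13.1% lower with all 6 mice, and 21.8% and 25.0% with the 3-digit mice.

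Of 12 microglia genes 3 were lower with all 6 mice, Ctss with -0.48, -0.59 and -0.28, Csf1r with -0.43, -0.61 and -0.12 and Cx3cr1 with -0.38, -0.59 and -0.02. In the 3-digit mice 6 were lower and 2 higher, and the list medians were -0.21, -0.28 and -0.13. Of 10 endothelial genes 1 was lower with all 6 mice, the glucose transporter Slc2a1 with -0.35, -0.43 and -0.16, and 1 was lower and 1 higher with the 3-digit mice. Of 6 meningeal fibroblast and 8 thalamus genes 0 passed with all 6 mice, and 1 of each list was higher with the 3-digit mice, Ogn with 0.81, 1.14 and 0.18 and Calb2 with 0.60, 0.93 and 0.06. In the other diestrus mice 0 interneuron, astrocyte, microglia, endothelial, meningeal or thalamus genes passed. Beside these counts stand the shares of all genes, 9.05% higher and 13.1% lower with all 6 mice. With the 3-digit mice these shares were 21.8% and 25.0%.

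Genes of tissues next to the brain tissue varied widely between mice. The 14 choroid plexus genes had mean levels of 1.05 to 2.63 in the 3-digit mice, -0.31 to 1.40 in the other diestrus mice and -1.47 to 0.88 in estrus, and 0 passed with all 6 mice and 4 with the 3-digit mice. Ttr, the thyroxine carrier made by that tissue, had levels of 7.53, 10.09 and 8.15, of 5.15, 4.47 and 7.15, and of 1.94 to 6.52 (median 4.28) in estrus. Its log2 fold change was 3.10 (SE 1.28, FDR = 0.0699), then 4.17 (FDR = 0.00566) and 1.15 (FDR = 0.869). Otx2, a transcription factor of the choroid plexus, had levels of 0.53, 2.02 and 0.78, of 1.44, 0.27 and 1.39, and of -1.65 to 0.36 (median -0.68) in estrus, and all diestrus mice but 380_4 lay above the estrus range. Otx2 stood at a log2 fold change of 1.76 (SE 0.92, FDR = 0.158), and Prlr, the prolactin receptor, of 0.46 (SE 0.62, FDR = 0.618).

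Prl, the pituitary hormone prolactin (ENSMUSG00000021342, GRCm38 chr13:27057570-27065205), had levels of -1.18, 0.59 and 3.20 in the 3-digit mice, 4.82, 3.36 and 4.93 in the other diestrus mice and 3.77 to 5.93 (median 4.75) in estrus. The 3-digit mice and 380_4 lay below the estrus range. Prl stood at a log2 fold change of -2.90 (SE 1.06, FDR = 0.0420), then -4.22 (FDR = 0.0148) and -0.71 (FDR = 0.853). Gh, growth hormone, which the pituitary makes as well, had levels of -2.21, 0.28 and 3.04, of 4.78, 3.27 and 4.70, and of 3.52 to 5.95 (median 5.02) in estrus, with log2 fold changes of -3.07, -4.51 and -0.65 (FDR = 0.0820 for the first). All 5 genes of red blood cells were lower with all 6 mice, with medians of -0.79, -1.001 and -0.50. The part of choroid plexus, pituitary or blood RNA in the other results was not tested.

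Tmem163, a zinc transporter of vesicles (ENSMUSG00000026347, GRCm38 chr1:127486546-127679548), had levels of 1.57, 9.11 and 9.31 in the 3-digit mice, 2.12, 0.85 and 2.18 in the other diestrus mice and 1.84 to 2.12 (median 1.90) in estrus. Mice 549 and 569 had 28139 and 32777 counts and 548 had 144, against 96 to 253 in the other 10. The log2 fold change of 2.96 (SE 1.06, FDR = 0.0390) thus came from 2 mice. In the whole series only the KO diestrus mouse 532 was as high, at 9.08, and the other 52 mice had at most 2.67.

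Wdfy1, an endosomal protein (ENSMUSG00000073643, GRCm38 chr1:79702262-79776143), had levels of 5.74, 6.53 and 6.54, of 4.44, 5.82 and 6.44, and of 4.03 to 4.55 in 6 estrus mice and 6.37 in 8_3. Over the series no mouse lay between 4.55 and 5.57, and 33 of 39 mice with Cnih3 x B6 parents lay above that gap, against 1 of 16 with B6 x B6 parents. With parents as a covariate the log2 fold change of Wdfy1 was 0.46 (FDR = 0.585), against 1.51 (FDR = 0.0119) without it. Scml4, a protein related to the Polycomb group, had levels of 1.84, 1.57 and 1.27, of 1.12, 1.96 and 0.94, and of -0.70 to 1.24 (median 0.43) in estrus, with log2 fold changes of 1.13, 1.23 and 1.04.

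The genes with the smallest p in the other diestrus mice did not pass there. Faap100, of the Fanconi anemia core complex, had log2 fold changes of 0.38, 0.32 and 0.46, Fhl4, a LIM domain protein, of 0.77, 0.62 and 0.97, and Nkain3 of 0.04, -0.19 and 0.44. On the lower side, Ccnyl1 had -0.78, -0.64 and -1.17, Abhd17b, which removes palmitate from synaptic proteins, -0.33, -0.29 and -0.43, and Apbb1ip -0.06, 0.40 and -0.92. The FDR in the other diestrus mice was 0.767 for each of these 6 genes. Nkain3 and Apbb1ip had opposite signs in the 3-digit and in the other diestrus mice, a difference chosen after their values were seen.

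Genes that were lower were longer than genes that were higher. The union of annotated exons had a median of 6.93 kb in the 1825 protein-coding genes that were lower, 3.25 kb in the 1405 that were higher and 4.45 kb in those not called, and the span on the genome 52.9, 16.1 and 24.9 kb. With protein-coding genes in 4 bins of equal number by exonic length, in the shortest bin 17.0% were higher and 4.36% lower with all 6 mice, and in the longest bin 3.53% and 26.8%. The median log2 fold change in the 4 bins, from shortest to longest, was 0.23, 0.05, -0.10 and -0.25 with the 3-digit mice. With the other diestrus mice it was 0.0003 in the shortest and -0.02 in the longest bin. Genes are not independent replicates, so no p is given, and the part of transcript length in the results above was not tested.

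**Figure D5:**
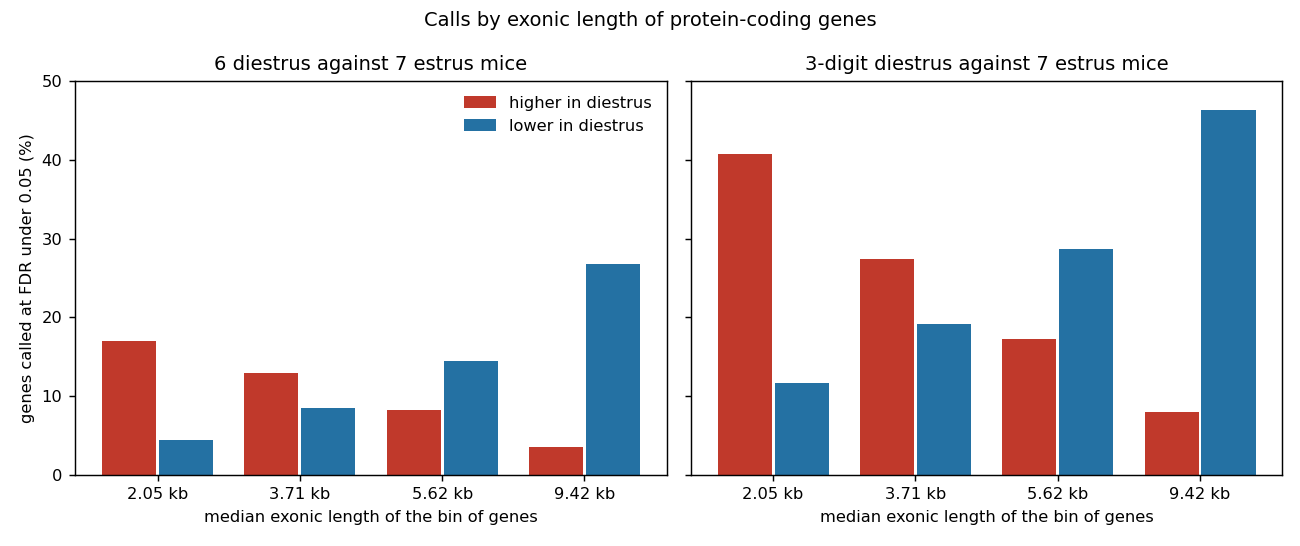
Percent of protein-coding genes at an FDR under 0.05 (y axis) that were higher or lower in WT diestrus than in WT estrus, in 4 bins of exonic length (x axis, median of the bin in kb), for all 6 diestrus mice and for the 3-digit mice. With the 3-digit mice the share of higher genes goes from 40.7% in the shortest to 8.02% in the longest bin and that of lower genes from 11.6% to 46.3%.

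The Cnih3 KO mice share no library with the WT mice, and 4 of their 6 diestrus mice also had 3-digit numbers. These 4 were 10.86 to 13.86 weeks old, the other 2 KO diestrus mice 16.29 and 23.43 weeks. The 6 KO estrus mice were 13 to 20.71 weeks old, and all of these KO mice had Cnih3 x B6 parents. Number form and younger age coincided in KO diestrus as in WT diestrus, and cannot be told apart there either. Of the 1463 genes higher in WT diestrus, 98.8% had the same sign in KO diestrus against KO estrus, compared with 83.1% of all genes tested, and 60.6% were called higher there (11.3% of all genes), which is 48.3% of the KO calls in that direction. Of the 2113 genes lower in WT diestrus, 99.1% had the same sign and 80.9% were called lower (19.3% of all genes), which is 54.7% of the KO calls. The 4 KO mice with 3-digit numbers had 2578 genes higher (15.9%) and 3605 lower (22.3%) than the 6 KO estrus mice, while the other 2 KO diestrus mice had 0 genes at the FDR and 120 at an unadjusted p under 0.05. Nuclear long non-coding RNAs took 0.102% to 0.123% of counts in these 4 and 0.421% to 0.424% in the other 2. Dividing the KO diestrus mice this way was chosen after the data were seen. Cntn2 had log2 fold changes of -1.20 in the 4 KO mice and -0.14 in the other 2, and Gria2 -0.74 and 0.02. A difference between WT and KO in the change from estrus to diestrus passed the FDR for 0 of 16168 genes in limma, edgeR and DESeq2, with 421, 316 and 339 at an unadjusted p under 0.05.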

How the data were processed

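RNA-seq of dorsal hippocampus was used as deposited by the authors, as gene counts (uniquely aligned, unambiguous reads) and as a table of log2 CPM after their filter. Per the submitters' processing notes, reads were aligned to GRCm38 with STAR 2.7.9a and counted with featureCounts 2.0.3. Of 55774 lines in the count table, 287 were repeats. 1 column belonged to no listed sample and was not used. The filter required more than 1 CPM in 10 or more libraries, and after removal of 5 ribosomal genes 16168 genes were tested. The log2 CPM recomputed from the counts differed from the authors' log2 values by at most 5e-14 in the 16164 genes compared. Differences were tested as in the study's methods, with TMM factors and limma's voom with sample quality weights (R 4.3.3, limma 3.58.1, edgeR 4.0.16) in 1 model of 55 libraries and 10 groups, or 11 groups with WT diestrus divided by mouse number. P-values were adjusted by Benjamini-Hochberg over all genes, with a threshold of 0.05. The 34 gene lists, the rule for named genes and the division by mouse number were chosen with earlier results of these data known. The rule named, in the comparison of all 6 diestrus mice, the 8 genes in each direction with the smallest p, the 3 with the largest fold change at a mean log2 CPM of at least 1 and the 4 with the smallest p and no overlap. It also named the 3 genes in each direction with the smallest p in the other diestrus mice, the 2 with the smallest p in each list, and Prl, Otx2, Prlr and Cnih3, and left out symbols of the form Gm plus digits or ending in Rik. A few list members are not reported here. Further genes of a list are named as members of that list, after their values were seen. Alternatives were edgeR's quasi-likelihood test, DESeq2 1.42.0 (adjusted p-values it gave as NA were kept as NA), equal weights, other factors, no filter, fewer libraries, age or parents as covariates and leaving out mice. Simulated counts with known changes were used to check these fits. Each mouse is 1 library, and the labels do not give litters or processing dates.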

Additional observations from a re-analysis of the deposited data

Results flagged for a closer look

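Of 274 sets of levels (103 genes and 34 lists, each in the 6 WT diestrus and the 7 WT estrus mice), 21 held a mouse far from the others of its stage by Dixon's test, which chance alone gives in about 1 of 20 sets. All values are in log2 CPM. In diestrus, mouse 380_4 was lowest for Abhd17b (4.30, others 4.67 to 4.77) and for Ccnyl1 (0.053, others 1.75 to 2.52). Mouse 548 was lowest for Ctss (4.78, others 5.22 to 5.47) and for Tmem205 (4.70, others 5.00 to 5.11). Mouse 2_2 was highest for Dusp1 (4.49, others 2.28 to 3.02) and lowest for Rgs14 (7.60, others 8.11 to 8.36). The mean of the steroid receptor list was highest in 549 (4.88, others 4.69 to 4.76), and that of the thalamus list lowest in 8_1 (2.99, others 3.26 to 3.37).

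In estrus, 6 flags fell on mouse 5_2, which was highest for Asns (8.04), Psmd1 (7.50), Uqcrc1 (9.52) and Uqcrc2 (8.43) and lowest for Luc7l2 (5.42) and Luc7l3 (7.52). Mouse 2_1 was lowest for Calr (7.09), Hsp90b1 (6.85) and mt-Co3 (7.99), and mouse 3_1 for Adpgk (2.41) and Prox1 (6.47). Mouse 8_3 was highest for Wdfy1 (6.37, others 4.03 to 4.55), and 3_2 lowest for the mean of the cholesterol synthesis list (4.15, others 4.65 to 4.78). The causes were not tested.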

How the results depend on the processing

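For all 6 WT diestrus mice against estrus, the 3576 genes became 2 with edgeR, 132 with DESeq2 (629 genes without an adjusted p), 501 with equal weights, 1910 with age and 553 with parents as a covariate. With only the 13 libraries edgeR gave 0 genes, with 2948 at an unadjusted p under 0.05. Without the 3-digit diestrus mice the count was 0, and with only these 7615. Leaving out single mice gave 0 to 6643, with 4, 0 and 1 without 548, 549 and 569, and 6594, 6629 and 6643 without 2_2, 380_4 and 8_1. The count stayed within 1.5 times of 3576 with no filter (2825), RLE factors (3603) and limma on the 13 libraries (2632). The mouse numbers do not mark pairs, and a replicate block on the first part of the number gave 3583 genes. For the 3-digit mice the 7569 genes became 4769 with edgeR and 4867 with equal weights, and 6054 to 7756 without single mice. Parents as a covariate were fitted only for all 6 diestrus mice, not for the 3-digit mice or between the diestrus sets. For the other diestrus mice the count of 0 became 27 with no filter on low counts and was 0 without any single mouse. For the difference between WT and KO it was 0 to 21 without single mice, with 18, 21 and 5 without 548, 549 and 569. The 5012 genes between the diestrus sets became 3369 to 5331 under the other settings and 3701 to 4849 without single mice. Without the 3-digit mice the log2 fold changes of Clock (0.027), Per3 (0.0093), Ndrg2 (-0.19), Rpl4 (-0.0045) and Tmem163 (-0.34) had the other sign. Of 80 named genes that passed, 1 also passed in the same direction with edgeR (Tmem163), 32 with DESeq2, 62 with age and 50 with parents as a covariate. The cause of these changes was not tested. The median log2 fold change of all genes lay between -0.022 and 0.009 in these settings.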

Other observations

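Gene families outside the lists, chosen after the results were known, are given as counts and medians. Of all genes, 9.05% were higher and 13.1% lower with all 6 mice, and 21.8% and 25.0% with the 3-digit mice. Of 14 tubulin genes 12 were higher and 0 lower with all 6 diestrus mice, and 13 were higher with the 3-digit mice, with median log2 fold changes of 0.36 and 0.54. All 8 subunits of the chaperonin that folds tubulin and actin were higher in both comparisons, with medians of 0.34 and 0.45. Of 77 mitochondrial ribosomal proteins 20 were higher with all 6 mice and 66 with the 3-digit mice, and 0 were lower. Translation initiation factors were higher in 15 and lower in 3 of 54 cases with all 6 mice.

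On the lower side, 14 of 27 semaphorins and plexins, which guide axons, were lower with all 6 mice and 20 with the 3-digit mice, with medians of -0.57 and -0.82. Of 23 voltage-gated calcium channel subunits 11 and 14 were lower. Of 253 solute carriers 99 were lower and 10 higher with all 6 mice, and 145 and 21 with the 3-digit mice. Further families were counted with all 6 mice. Of 26 kinesins 2 were higher and 3 lower, of 344 zinc finger proteins (Zfp) 13 and 25, and of 188 Tmem genes 10 and 34. Of 33 ubiquitin conjugating enzymes 7 were higher and 0 lower. Of 17 V-type proton pump subunits 7 and 2, and of 17 adhesion G protein-coupled receptors 0 and 4. In the other diestrus mice 0 members of any of these families passed the FDR.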
